A study of Mus musculus with 3 samples.

Results

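The invasive and the localized tumour cell line of HI-Panc, a model of pancreatic cancer in the mouse (Mus musculus), were compared by RNA-seq, with 1 library for each line. All genes of the deposited expression table that carry a gene name and reached a mean of at least 1 FPKM (fragments per kilobase of transcript, scaled to the mapped fragments of the library) over the 3 libraries of the series were taken, apart from 2 entries of ribosomal or other structural RNA left out by name. These were 11404 of 22757 genes, and the comparison used 2 of the 3 libraries. The third library, from the metastatic line, took part in the filter and is given beside each gene as a further reading. Per the labels, every line came from a tumour of transgenic mice, and the genotype label is p16-/- for each of them. Whether a line is a single clone, and how many animals it goes back to, was not given in the sources used here. The culture medium was DMEM plus 10% FBS (fetal bovine serum). The treatment label, worded alike for every sample, describes cobalt chloride (an agent that stabilises hypoxia-inducible factors) at 100 ng/ml for 24 h. Whether these libraries came from exposed cells was not given. The stage label set the groups here. The tissue label reads pancreatic tissue for the invasive and body wall for the localized line, and liver for the metastatic line, so the site and the stage named for the first pair do not follow the usual order. Had the labels of these 2 lines been swapped, each higher or lower below would turn round, and the files used here do not settle it. With 1 library a side there is no replicate, no difference below has an error from replicates, and no test was made. What follows compares 2 libraries, not tumour stages.

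Pancreatic ductal tumours arise in an epithelium that secretes bicarbonate and lines tubes, and its cells are held together by tight junctions, adherens junctions and desmosomes. Tumour cells can give up this organisation in part and take on a mesenchymal programme, with factors such as Snai1, Twist1 and Prrx1, secreted collagen and growth factor receptors such as Pdgfra. Epithelial cells of the gut and pancreas also carry their own machinery of ion transport, oxidant production at the surface and mucosal defence. The question here was which of these programmes, and which other gene families, set the 2 lines apart.

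Differences are given in log2(FPKM + 1), invasive minus localized, so a value of 1 is a 2-fold difference, and for genes with low values it is smaller than the fold itself. Where 3 values follow a gene, they are its FPKM in the localized, the invasive and the metastatic library, in that order. The table gives no counts. From the steps between low values, the depth was estimated at 41000000 fragments for the localized and 37200000 for the invasive library. A level of 1 FPKM in a 2-kb transcript then rests on about 82 and 74.4 fragments, with a counting error of 11% and 11.6%. Counting error of this size is small against a 2-fold difference at 1 FPKM, but it leaves out the spread between cultures, which was not measured. Of the 11404 genes, 1001 were higher by 2-fold or more in the invasive library (8.78%) and 692 were lower by as much (6.07%). A further 85.2% lay within 2-fold, and the median difference was 0.0. At least 16-fold separated 72 of the higher and 24 of the lower genes. The metastatic library lay nearer to the invasive than to the localized library for 915 of the higher and 654 of the lower genes.

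Defining acinar and islet markers of normal pancreas were close to 0 in both lines. Of 23 acinar genes listed 22 were in the table, and 1 of them passed the filter, Cela1, a pancreatic elastase gene, with 7.24, 1.13 and 0.323 FPKM. Ptf1a and Cpa1 were listed at 0 in every library. None of 19 islet genes passed, and Ins1, Ins2 and Gcg were listed at 0. Duct genes were present in both, with 14 of 16 past the filter, 9 of them higher in the invasive library and none lower. Pdx1, the pancreatic homeobox factor, was level, with 58.6, 66 and 63.3 FPKM. The libraries differed at the gene named in the genotype: Cdkn2a, which encodes p16, was at 0, 15.4 and 23.6 FPKM. A value per gene does not show which transcripts of Cdkn2a were read, so these levels do not decide whether the genotype label holds. For the labelled body wall and liver sites, skeletal muscle and hepatocyte markers were low, with 1 exception. Muscle genes were led by Tnni2 at 3.09 FPKM in the invasive library, the myogenic factor Myod1 had 0.0914 FPKM in the localized line and 0 in the invasive one, and the hepatocyte gene Alb stayed under 0.1 FPKM throughout. The exception on the hepatocyte list was Hnf4a, a factor also of gut and pancreas, with 11.9, 24.1 and 34.2 FPKM, and it was the 1 gene of 12 in the table that passed the filter. Of 16 mesothelial genes 4 passed, the keratins Krt8 and Krt18 among them, which duct cells share, while the defining genes Wt1 and Calb2 were at 0 in every library. Fibroblast markers had a summed value of 678, 109 and 28.2 FPKM, with 9 of the 10 that passed lower in the invasive line. Of 16 fibroblast markers, Fap, Pi16, Postn and Mfap5 were under 0.3 FPKM in every library. Pericyte and smooth muscle markers had 3 of 10 past the filter, all lower, with a summed value of 59.9, 7.56 and 2.89 FPKM. Markers of gut went both ways. Intestinal markers had 5 of 9 past the filter higher and 2 lower, and gastric markers 4 of 7 higher and 2 lower. Reg and trefoil peptides had 2 of 3 lower and none higher, with Tff3 at 31.5, 0.524 and 0.33 FPKM. In bulk RNA, fewer cells of a type and less RNA per cell cannot be told apart, so whether the mesenchymal genes below came from all cells of the localized culture or from some was not tested.

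The 210 families and lists examined spread over both directions. Of 113 families taken by symbol with at least 5 members past the filter, 32 had at least 1 in 3 of those members higher by 2-fold or more and 21 had that share lower, against 8.78% and 6.07% of all genes. Every count of a family or list below is to be read against these shares of all genes. Members called in both directions were found in 72 families, so most families were split and did not differ as a block. A gene near 0 in one library passes the filter only where it is high in another, and the shares are therefore descriptions of these families and not support for a direction.

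**Figure D1:**
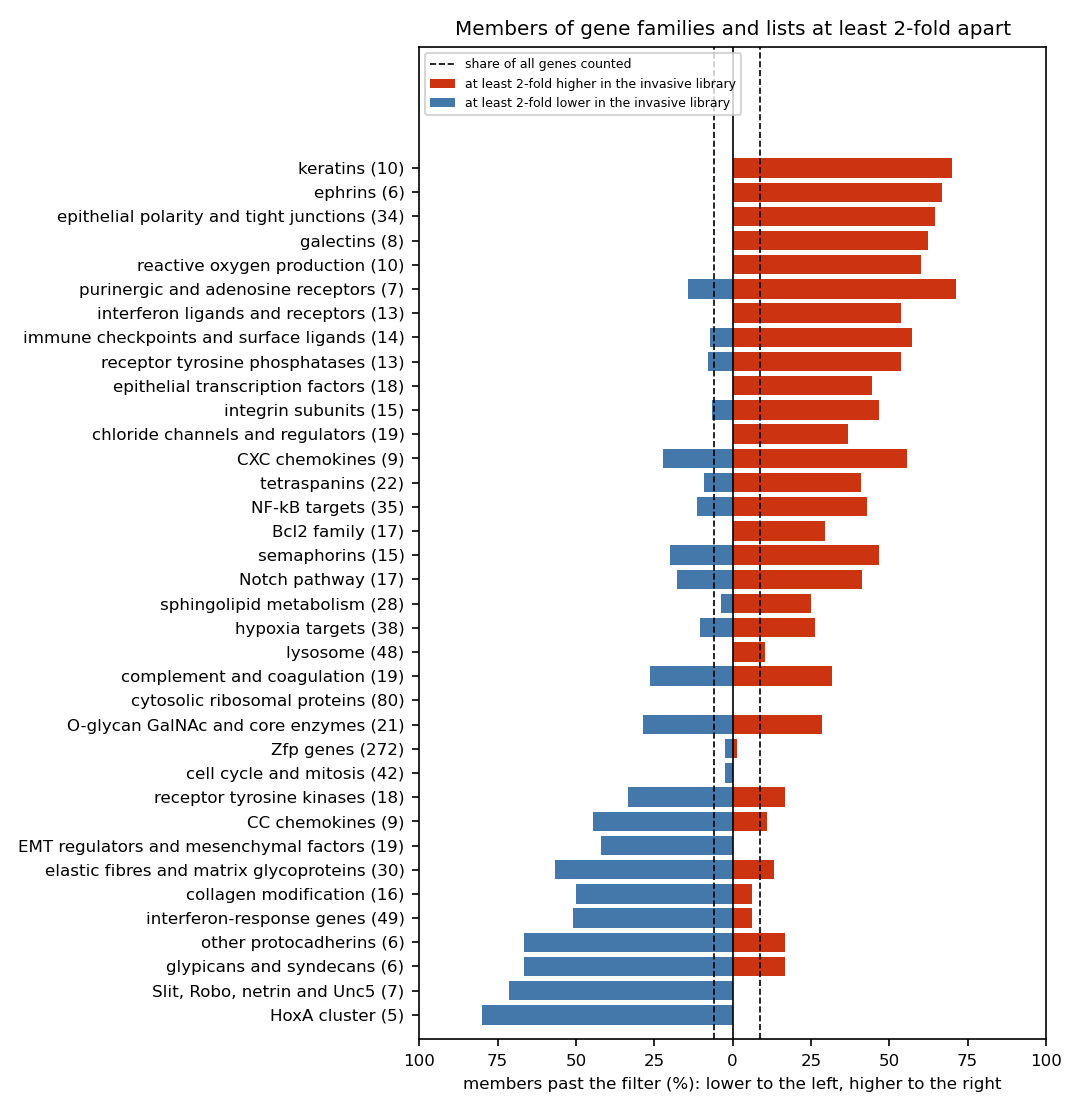
Share of the members past the filter that were at least 2-fold higher (red, to the right) or lower (blue, to the left) in the invasive library, for 36 families and lists, with the number of members past the filter in brackets; dashed lines mark the shares of all 11404 genes, 8.78% and 6.07%. Keratins, ephrins and junction genes lie to the right, the HoxA cluster and the Slit, Robo, netrin and Unc5 genes to the left, and ribosomal protein genes have no member past 2-fold.

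Many genes of epithelial polarity and of cell junctions were higher in the invasive line. Of 44 listed, 42 were in the table and 34 passed the filter, of which 22 were at least 2-fold higher and none lower (64.7% against the 8.78% of all genes), with a median difference of 1.29. Tjp3, a scaffold of the tight junction, was at 0.367, 39.98 and 44.1 FPKM. Ocln, the strand protein occludin, was listed at 0 in the localized library and at 14.1 FPKM in the invasive line and 17.6 FPKM in the metastatic line. Lsr, a receptor that marks the corners where 3 cells meet, was at 0.201, 26 and 22.1 FPKM. In each case the localized library was under 0.5 FPKM and the others were over 10. The desmosome anchor protein Dsp was at 0.111, 19.9 and 14.9 FPKM. Its partners, the desmosomal cadherins, stayed low, with a summed value of 0.0441, 4.74 and 21 FPKM. In that family 2 of 9 passed the filter, with 1 higher and none lower. Polarity genes differed in part, with Llgl2 at 0.955, 19 and 22.2 FPKM and the apical determinant Crb3 at 0.157, 3.005 and 2.17 FPKM. The polarity genes Pard3, Pard6a and Dlg1 were within 2-fold, with differences of 0.24, -0.12 and 0.15. Cdh1, E-cadherin, was not absent from the localized line, with 20.7, 218 and 118 FPKM, a difference of 3.34. Epcam, an epithelial surface gene of the same list, stayed low throughout, with 0.209, 1.31 and 2.63 FPKM, and was within 2-fold on this scale. Some broadly expressed members were also 2-fold apart, among them Tjp1 with 34, 100.3 and 107 FPKM and the plaque protein Jup with 23, 64.5 and 49.5 FPKM. Of 19 mesenchymal and transition factors that passed, 8 were lower and none higher. Snai1, a repressor of epithelial genes, was at 30.2, 1.26 and 0.605 FPKM, and Twist1 at 61.9, 6.13 and 13.5 FPKM. The mesenchymal factors Prrx1 and Osr1 were at 83.7, 4.34 and 1.16 FPKM and at 59.8, 0.728 and 0.0376 FPKM. Zeb1, another repressor of epithelial genes, was level, with 12.9, 13.1 and 11.2 FPKM.

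The promoter letters of junction genes are shown here because Snail and Zeb repressors are known to bind the E-box CACCTG. On the other strand it reads CAGGTG. The stretches are the 160 bases before a start site of the gene in RefSeq (build GRCm38.p6), 5′ to 3′ on the strand of the gene, with every E-box of either strand in capitals. Lsr lies on the minus strand at chr7:30973470-30973629, Crb3 on the plus strand at chr17:57062041-57062200, and Tjp3 on the minus strand at chr10:81291582-81291741.
Lsr: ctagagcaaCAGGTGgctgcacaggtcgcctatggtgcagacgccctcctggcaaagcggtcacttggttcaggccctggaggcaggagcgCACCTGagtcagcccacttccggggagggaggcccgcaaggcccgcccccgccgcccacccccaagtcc
Crb3: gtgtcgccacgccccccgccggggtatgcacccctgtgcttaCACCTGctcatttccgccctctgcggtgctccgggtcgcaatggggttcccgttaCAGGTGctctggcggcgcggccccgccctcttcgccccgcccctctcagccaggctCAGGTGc
Tjp3: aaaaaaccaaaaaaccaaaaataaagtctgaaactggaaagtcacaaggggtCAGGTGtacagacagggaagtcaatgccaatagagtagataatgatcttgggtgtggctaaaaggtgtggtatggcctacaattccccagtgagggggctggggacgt
The Lsr stretch holds 2 matches, the Crb3 stretch 3 and the Tjp3 stretch 1. Over the whole window of 250 bases before to 50 after a start, both strands searched and overlaps allowed, 19 of 33 promoters of the list's members past the filter held the E-box (57.6%). For the members that were higher in the invasive line it was 15 of 21 promoters (71.4%). Among all genes counted, 17.2% of 11090 promoters held it, and among all higher genes 25.7% of 981 and all lower genes 18.8% of 680. A gene with several starts has several promoters, some of which overlap, as for Crb3. A match is a run of letters and not a bound site.

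Ion transport set the lines apart next. Of 34 chloride channels and their regulators, 19 passed, 7 were higher by 2-fold or more and none lower, a median difference of 0.76. Clca4, a regulator of calcium-activated chloride secretion, was at 0.531, 114 and 327 FPKM. The intracellular channel protein Clic6 was at 0.0184, 20.8 and 28.7 FPKM. Ano1, the calcium-activated chloride channel itself, was well expressed in both, with 20.1, 54.3 and 47.2 FPKM. The first 2 were near 0 in the localized line, whereas Ano1 differed 2.71-fold. Cftr, the channel of duct bicarbonate secretion, stayed low, with 0.00713, 0.807 and 3.41 FPKM, and was not past 2-fold on this scale. Anion exchangers and bicarbonate carriers had 9 members past the filter, 3 higher and none lower. Slc26a2, a sulphate carrier, was at 2.67, 72 and 71.1 FPKM, and Slc26a9, a chloride carrier of gastric and airway epithelium, at 0.265, 10.9 and 3.28 FPKM. Slc4a4, which loads duct cells with bicarbonate, was at 0.72, 8.49 and 4.76 FPKM, and the carbonic anhydrase Car2 at 0.584, 32.9 and 24.5 FPKM. The basolateral chloride loader Slc12a2 was at 52.3, 138 and 196 FPKM, a 2.63-fold difference. All of these genes of epithelial secretion were higher in the invasive and in the metastatic than in the localized library. Potassium channels were split, with 4 of 11 higher and 3 lower. Kcnq1, the channel that recycles potassium in secreting epithelium, was at 0.107, 40.9 and 28.8 FPKM, and its partner Kcne3 at 1.9, 5.71 and 3.75 FPKM. Kcnh2, a channel best known from heart muscle, was on the other side, with 7.76, 0.606 and 0.893 FPKM. Water channels ran against the secretory genes: Aqp5 was at 182, 6.2 and 5.01 FPKM and Aqp1 at 160.3, 58.9 and 25.5 FPKM, both lower in the invasive line.

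Carriers of other solutes were mostly level, with a few large differences. Slc39a4, the zinc importer of the gut, was at 7.25, 147 and 148 FPKM, a 20.3-fold difference. The glucose carrier family had 3 members past the filter, and 1 of them differed, Slc2a6, with 1.08, 34.2 and 23.6 FPKM, while the main carrier Slc2a1 was at 94.2, 103 and 139.8 FPKM. Of 26 ABC transporters 6 were higher and 1 lower: the bile salt and drug exporter Abcc3 was at 3.54, 38.8 and 47 FPKM and the cholesterol exporter Abca1 at 4.25, 0.555 and 1.01 FPKM. Amino acid carriers had 2 of 18 members higher and none lower, and mitochondrial carriers 3 of 37 higher and 1 lower, near the share over all genes. Slc25a1, the citrate carrier that feeds lipid synthesis, was at 40.1, 98.3 and 106 FPKM. The lactate carrier Slc16a3 was level, with 133, 128 and 111 FPKM, but the related Slc16a11 was at 19.2, 0.661 and 0.598 FPKM, high in the localized library only.

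Enzymes that make reactive oxygen at the cell surface were among the largest differences. Of 16 listed, 10 passed, 6 were higher in the invasive library and none lower, and the median difference was 2.63. Nox1, the oxidase of the colon epithelium, was at 2.73, 343 and 279 FPKM, and its organiser Noxo1 at 3.3, 27.5 and 18 FPKM. Duox2, an oxidase that feeds hydrogen peroxide to mucosal peroxidases, was at 0.025, 62.6 and 49.2 FPKM, with its maturation factor Duoxa2 at 0.139, 94 and 79.7 FPKM. Not every partner differed, since Noxa1, the activator of Nox1, was within 2-fold, with 3.12, 2.63 and 10.5 FPKM. Cybb, the oxidase of phagocytes, was at 0.1004, 5.37 and 0.719 FPKM and Ncf4, one of its cytosolic partners, was listed at 0 in the localized library and at 7.65 FPKM in the invasive line. Of 18 leukocyte markers listed 4 passed, and the list's summed value of 90.4, 154 and 96.1 FPKM was mostly Cd14, with 84.8, 139 and 80.3 FPKM. The pan-leukocyte gene Ptprc was at 0.0172, 0.197 and 0.069 FPKM, and Cd3e, Tyrobp and Cd52 were at 0 in both. The part of leukocytes in the result was not tested beyond these values. On the side of defence, Gpx2, the glutathione peroxidase of the gut, was at 0.0246, 6.67 and 5.13 FPKM. Antioxidant genes as a list had 30 of 39 within 2-fold and 3 higher (7.69%, against 8.78% of all genes). A further 6 were lower (15.4%, against 6.07%), and the median of the list was -0.15. Among the lower ones, Nqo1, a quinone reductase and Nrf2 target, was at 182, 13.4 and 38.7 FPKM, Hmox1, haem oxygenase, at 84.9, 16.8 and 20.9 FPKM, and Sod3, the secreted superoxide dismutase, at 61.8, 0.598 and 0.283 FPKM. The localized line was the highest of the 3 for each of them. Glutathione transferases were split, with 6 of 21 higher, such as Gsta4 at 128, 406 and 559 FPKM and Gstt1 at 1.27, 29.2 and 41.1 FPKM, and 2 lower.

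Extracellular nucleotides formed a related group. Nt5e (CD73), the surface enzyme that makes adenosine from AMP, was at 0.501, 47.6 and 52.6 FPKM. Cd38, which breaks down NAD outside the cell, was at 0.52, 33.2 and 29.3 FPKM, and Enpp3, a surface nucleotide pyrophosphatase, at 2.56, 33.5 and 25.8 FPKM. All 3 enzymes were low in the localized library and similar in the other 2. Of 19 receptors for adenosine and nucleotides, 7 passed, 5 were higher and 1 lower, with a median difference of 2.38. The adenosine receptors Adora2a and Adora1 were at 0.18, 27.2 and 24 FPKM and at 0.0199, 4.32 and 6.32 FPKM. P2ry2, a receptor for ATP and UTP that drives epithelial secretion, was at 4.63, 49.9 and 54.2 FPKM. P2rx7, an ATP-gated channel of inflammation, was on the other side, with 5.29, 2.09 and 1.88 FPKM. Nt5e is also on the list of surface ligands seen by immune cells, where 14 of 24 passed, 8 were higher and 1 lower. The galectin Lgals9 was at 55.5, 202 and 169 FPKM, and the co-stimulator Icosl at 0.136, 8.02 and 3.73 FPKM. H60b and Raet1e, ligands of the killer cell receptor NKG2D, were at 0.992, 8.05 and 11.7 FPKM and at 4.14, 14.1 and 17 FPKM. Cd80, the ligand of CD28, was the member in the other direction, with 12.8, 0.972 and 1.48 FPKM.

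**Figure D2:**
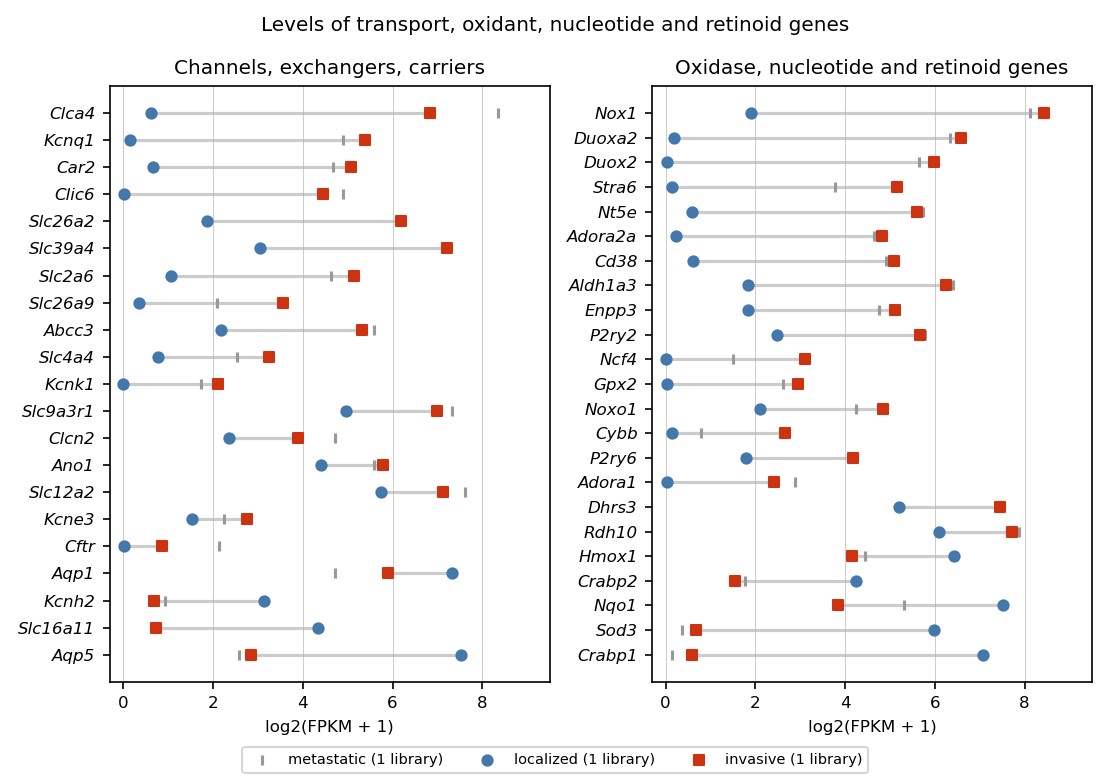
Level of single genes in log2(FPKM + 1) for channels and carriers (left) and for oxidase, nucleotide and retinoid genes (right), with 1 point for each library: localized (blue circle), invasive (red square) and metastatic (grey bar). Most genes at the top of each panel, such as Clca4 at 0.531 and 114 FPKM or Nox1 at 2.73 and 343 FPKM in the localized and invasive library, have the metastatic library near the invasive one.

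The lines differed in which growth factor receptors they expressed. Of 40 receptor tyrosine kinases 18 passed, with 3 higher and 6 lower in the invasive library. Egfr was at 2.77, 8.51 and 8.16 FPKM, its partner Erbb3 at 0.723, 6.29 and 7.86 FPKM and Mst1r, the receptor of macrophage-stimulating protein, at 1.15, 6.17 and 8.07 FPKM. Each of these receptors of epithelial cells was lowest in the localized line. Pdgfra, the receptor of fibroblasts, was at 42.7, 1.09 and 1.97 FPKM, Fgfr1 at 42.7, 3.79 and 2.09 FPKM and the collagen receptor Ddr2 at 35, 1.02 and 0.184 FPKM. Met was within 2-fold, with 37.2, 29.7 and 32.6 FPKM. The ligands followed in part. Tgfa, a ligand of Egfr, was at 2.18, 8.11 and 7.46 FPKM and Hbegf at 47.1, 95.6 and 61.6 FPKM, while Ereg was at 15.9, 5.4 and 9.47 FPKM. Fgf7 and Fgf10, which fibroblasts make for epithelium, were at 75.9, 0.379 and 1.52 FPKM and at 7.7, 0.165 and 0.141 FPKM. Gas6, the ligand of Axl, was at 2.01, 24.5 and 49.97 FPKM, higher in the invasive line, whereas its receptor Axl was at 237, 97.9 and 78.9 FPKM. Receptor tyrosine phosphatases were mostly higher, 7 of 13 and 1 lower: Ptprr, which acts on MAP kinases, was at 0.807, 43.7 and 47.7 FPKM and Ptprk, a junctional phosphatase, at 6.12, 22.3 and 20.5 FPKM. Feedback genes of the MAP kinase pathway gave 6 higher and 1 lower of 22, such as Spry1 at 2.33, 15.3 and 22.3 FPKM and Spry4 at 6.51, 16.2 and 14 FPKM. The phosphatase Dusp6, a close readout of the same pathway, was at 87.3, 144 and 124 FPKM.

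Wnt ligands were divided between the lines. Wnt7b was at 1.36, 78 and 87.1 FPKM and Wnt4 at 0.666, 9.69 and 8.49 FPKM, but Wnt10b was at 13.2, 0.864 and 0.673 FPKM and Wnt5a at 3.21, 1.07 and 0.259 FPKM. Dkk2, a secreted Wnt antagonist, was among the largest differences in the lower direction, with 58.1, 0.701 and 0.489 FPKM. Axin2, a common target of the pathway, was at 0.954, 2.97 and 2.11 FPKM, and Rnf43, a feedback ligase, at 0.0212, 1.21 and 4.28 FPKM. In the Notch pathway 7 of 17 members past the filter were higher and 3 lower. The ligands Dll1 and Jag2 were at 0.148, 13.7 and 9.41 FPKM and at 1.66, 14.7 and 11.8 FPKM, and the receptor Notch1 at 2.56, 8.16 and 5.64 FPKM. Target genes were on the same side, with Hes1 at 9.11, 66.9 and 40.8 FPKM and Nrarp at 4.63, 19.3 and 18.6 FPKM. These ligands, this receptor and these targets were thus higher in the invasive than in the localized line, whereas the non-canonical ligand Dlk1 was at 5.38, 0.128 and 0.0276 FPKM and the pathway's DNA-binding protein Rbpj at 63.6, 29.7 and 29.2 FPKM. In the Hedgehog pathway, Ptch1, receptor and target, was at 2.39, 7.54 and 5.92 FPKM and the ligand Dhh at 2.39, 8.24 and 7.39 FPKM, while Gas1, a co-receptor, was at 112, 9.57 and 11.7 FPKM.

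Guidance families, which steer growing axons and also sort epithelial cells, differed by family. Of 6 ephrins past the filter 4 were higher and none lower, such as Efna4 with 4.74, 29.4 and 22.5 FPKM and Efna3 with 0.251, 7.63 and 4.11 FPKM. Of 7 Slit, Robo, netrin and Unc5 genes 5 were lower and none higher: Slit2 was at 7.82, 2.19 and 3.38 FPKM, its receptor Robo2 at 3.47, 0.428 and 1.11 FPKM and Ntn1 at 15.8, 3.1 and 6.2 FPKM. Semaphorins were mixed, with 7 of 15 higher and 3 lower, and after their values were seen they were sorted by class. The 5 members of the transmembrane class 4 past 2-fold were all higher, such as Sema4b with 24.6, 77.9 and 73.4 FPKM and Sema4f with 0.894, 5.06 and 10.1 FPKM. Of the secreted class 3, Sema3a was at 10.8, 1.53 and 1.27 FPKM and Sema3c at 143, 69.9 and 95.2 FPKM, both lower, but Sema3e was higher, at 1.04, 7.26 and 9.17 FPKM. The receptor Nrp1 was at 26.9, 10.9 and 9.38 FPKM. Protocadherins outside the clusters gave 4 lower and 1 higher of 6, such as Pcdh19 with 15.5, 0.22 and 0.308 FPKM and Pcdh18 with 6.18, 0.228 and 0.0276 FPKM. Among heparan sulphate carriers of the surface, 1 of 6 was higher and 4 were lower: Sdc1, the epithelial syndecan, was at 98.3, 331 and 324 FPKM, whereas Gpc4 was at 21.6, 0.666 and 2.23 FPKM, Gpc1 at 107, 30.7 and 28.5 FPKM and Sdc3 at 32.6, 7.6 and 3.13 FPKM. Integrin subunits had 7 of 15 higher, led by Itga2, a collagen-binding subunit, with 2.84, 64.1 and 56.3 FPKM, and Itgbl1, a related secreted protein, lower, with 4.33, 0.1002 and 0.0317 FPKM. Tetraspanins had 9 of 22 higher and 2 lower, with Tspan8 at 31.2, 439 and 429 FPKM and Tspan11 at 17.6, 1.32 and 0.0456 FPKM on the opposite sides.

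Transcription factor families showed which regulators differed. In the Gata family, Gata5 was at 0.028, 17 and 16.3 FPKM, Gata6 at 0.384, 7.28 and 8.42 FPKM and Gata3 at 0.288, 7.22 and 3.85 FPKM, all factors of gut or other epithelium. Gata4 was level, with 17.9, 23.7 and 24.5 FPKM, and Gata2, known from blood and stroma, was at 25.8, 0.633 and 0.015 FPKM. Thus 3 members were near 0 in the localized and 1 near 0 in the invasive library. Of 34 epithelial factors listed 18 passed, 8 were higher and none lower. Elf3 was at 7.2, 102 and 97.5 FPKM, Ehf at 16.7, 82 and 67.4 FPKM, Klf5 at 17.4, 56.2 and 65.4 FPKM and Foxa1 at 3.05, 11.8 and 10.8 FPKM. The intestinal factors Isx and Cdx2 were at 0.0407, 11.7 and 79.5 FPKM and at 5.4, 35.2 and 70.6 FPKM, both highest in the metastatic line. Hnf4a and Sox9 were within 2-fold, and so was Pdx1, as given above. Pitx1, a homeobox factor of hindlimb and mouth, was unlike the others in that the metastatic library did not share it, with 0.0385, 14.4 and 0.0304 FPKM. Of the Hox clusters, the HoxA cluster alone had members past the filter, 5 of 12, with 4 lower and none higher. Hoxa5 was at 3.32, 0.09995 and 1.81 FPKM and Hoxa4 at 3.13, 0.0719 and 0.579 FPKM, low values in every library, with the metastatic library between the other 2. Hoxa13, the member that passed without differing, was at 0, 0.0856 and 5.45 FPKM, so its highest value was in the metastatic line. Further factors lower in the invasive line were Dlx2 with 5.46, 0.148 and 0.0301 FPKM and Sox12 with 5.997, 0.342 and 0.292 FPKM. Among nuclear receptors 2 of 26 were higher (7.69%, against 8.78% of all genes) and 5 lower (19.2%, against 6.07%). The mineralocorticoid receptor Nr3c2 was at 0.727, 7.66 and 8.84 FPKM, Pparg at 16.2, 37.4 and 73.4 FPKM and the thyroid hormone receptor Thrb at 3.88, 0.383 and 0.525 FPKM. Of 272 zinc finger genes named Zfp, 4 were higher and 7 lower, under the share of all genes on both sides.

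**Figure D3:**
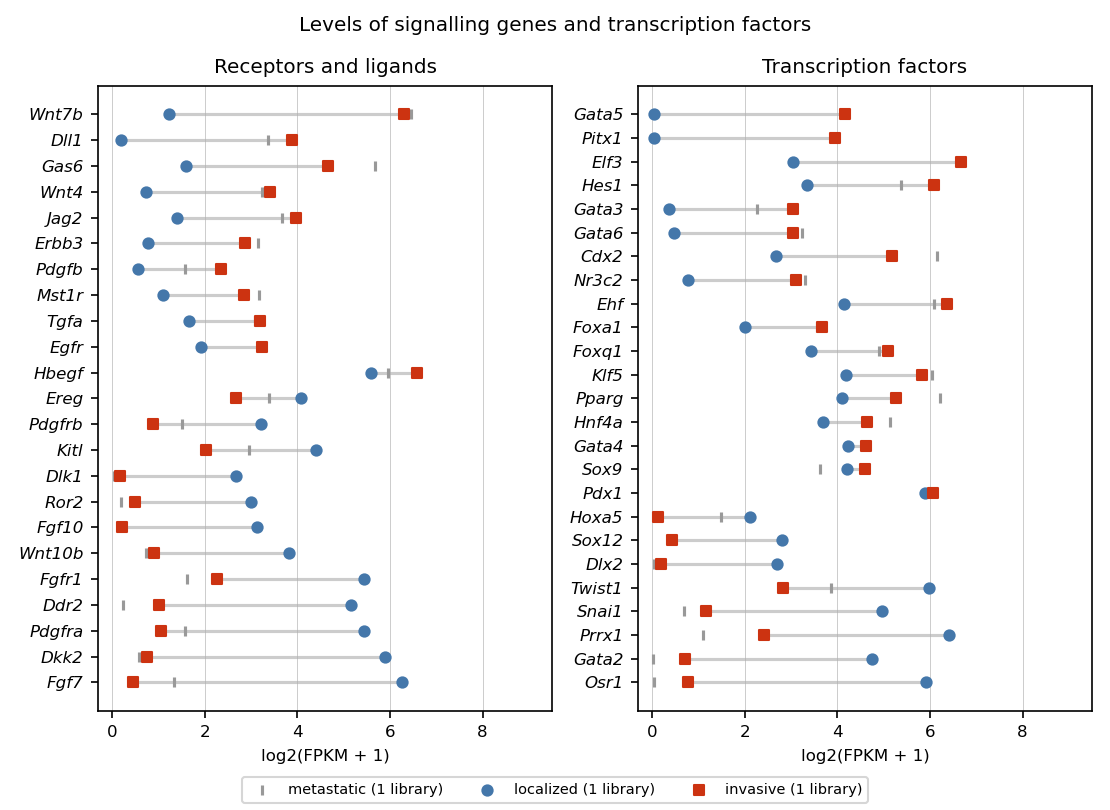
Level of single genes in log2(FPKM + 1) for receptors and ligands (left) and transcription factors (right), in the localized (blue circle), invasive (red square) and metastatic library (grey bar), 1 library each. Wnt7b and Gata5 lead the genes higher in the invasive line, Fgf7 and Osr1 those lower, and Pdx1 is level at 58.6 and 66 FPKM.

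Targets of NF-kB, the factor that inflammatory signals release into the nucleus, were more often higher than lower in the invasive line. Of 37 listed, 35 passed, 15 were higher and 4 lower, and the median difference was 0.74. The colony-stimulating factors Csf3 and Csf2 were at 0.757, 147 and 88.3 FPKM and at 0.948, 96.2 and 23.6 FPKM. Ccl20, a chemokine of mucosal epithelium, was at 3.35, 108 and 145 FPKM, and Tnf at 0.282, 7.58 and 7.15 FPKM. Feedback inhibitors of the pathway were smaller differences from higher levels: Nfkbia was at 85.1, 237 and 133 FPKM and Tnfaip3 at 22.8, 61.7 and 39.6 FPKM. On the other side, Traf1 was at 11.5, 2.41 and 0.503 FPKM and Ccl2, a monocyte chemokine, at 417, 162 and 45 FPKM. Genes of the factor's own subunits were each within 2-fold, on both sides of 0. Nfkb2 was at 51.1, 27.2 and 26.4 FPKM, Relb at 19.4, 10.6 and 7.997 FPKM and Rela at 49.96, 33.2 and 34.3 FPKM, while Nfkb1 was at 30.9, 37.9 and 33.5 FPKM and Rel at 1.54, 2.71 and 3.27 FPKM. Chemokines were split by class, with 5 of 9 CXC chemokines higher and 2 lower, and 1 of 9 CC chemokines higher and 4 lower. Cxcl5, which draws neutrophils, was abundant in every library, at 533, 2399 and 2161 FPKM. The stromal chemokine Cxcl12 was at 19.3, 0.0643 and 0.0135 FPKM and Ccl7 at 109, 3.76 and 2.15 FPKM. Of 21 interleukin receptor genes past the filter 7 were higher and 2 lower. The receptor chain Il22ra1, through which interleukin 22 acts on epithelium, was at 3.12, 23.9 and 24.7 FPKM, and Il1rl1, the interleukin 33 receptor, at 105, 0.0611 and 0.037 FPKM, near 0 outside the localized line. Il33 itself was level, with 158, 142 and 147 FPKM.

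Interferon receptors and interferon-response genes went in opposite directions. Of 22 interferon ligands, receptors and proximal signalling genes 13 passed, 7 were higher and none lower, with a median difference of 1.03. Ifnar1 and Ifnar2, the receptor of type I interferon, were at 5.86, 19.1 and 16.5 FPKM and at 14.4, 46.1 and 35 FPKM. The interferon gamma receptor genes were Ifngr1, with 31.6, 172 and 157 FPKM, and Ifngr2, with 44.4, 128 and 120.4 FPKM. The kinases Jak1 and Tyk2, to which these receptors couple, were within 2-fold. Of the response genes, 49 of 54 listed passed, 3 were higher and 25 lower (51% against 6.07% of all genes), with a median of -1.04. Ifit1 was at 55.2, 5.14 and 1.9 FPKM, Isg15, a ubiquitin-like modifier, at 218, 41.7 and 18.2 FPKM and Bst2, which tethers viruses to the cell, at 520.2, 189.8 and 144 FPKM. In each case the order was localized, invasive, metastatic from high to low. The factors that carry the signal were lower as well, with Stat2 at 20.6, 7.74 and 5.32 FPKM and Irf7 at 111, 51.9 and 54.6 FPKM. Irf1, which NF-kB also drives, was at 28, 59.5 and 41.1 FPKM, higher in the invasive line. MHC class I presentation did not follow, with 18 members past the filter, 1 of them lower, none higher, and B2m, its light chain, was just within 2-fold, at 1868, 967 and 546 FPKM.

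The promoters of 2 response genes and 2 NF-kB targets are printed because the letter sequences known for these pathways lie just before the start. The stretches again cover 160 bases before a start in RefSeq (GRCm38.p6), on the strand of the gene. Capitals in the first pair mark the core of the interferon-stimulated response element (GAAA, any 2 bases and GAAA again, on either strand) and in the second pair the NF-kB site. Ifit1 lies on the plus strand at chr19:34640729-34640888, Isg15 on the minus strand at chr4:156200819-156200978, Ccl20 on the plus strand at chr1:83116606-83116765 and Nfkbia on the minus strand at chr12:55492648-55492807.
Ifit1: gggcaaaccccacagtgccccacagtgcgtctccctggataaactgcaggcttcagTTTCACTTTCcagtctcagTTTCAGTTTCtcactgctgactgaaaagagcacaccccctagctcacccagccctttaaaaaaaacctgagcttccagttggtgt
Isg15: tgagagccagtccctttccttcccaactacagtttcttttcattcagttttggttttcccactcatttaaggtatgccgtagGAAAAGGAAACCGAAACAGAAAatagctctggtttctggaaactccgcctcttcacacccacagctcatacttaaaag
Ccl20: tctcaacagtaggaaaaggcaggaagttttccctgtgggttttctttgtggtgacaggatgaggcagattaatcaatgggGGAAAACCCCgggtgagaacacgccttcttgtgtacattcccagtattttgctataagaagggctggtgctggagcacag
Nfkbia: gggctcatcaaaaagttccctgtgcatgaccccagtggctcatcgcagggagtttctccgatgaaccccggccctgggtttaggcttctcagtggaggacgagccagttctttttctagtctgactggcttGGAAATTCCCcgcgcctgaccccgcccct
The Ifit1 stretch holds 2 matches and the Isg15 stretch 3 that overlap, while Ccl20 and Nfkbia hold 1 each. Of 38 promoters of interferon-response genes past the filter, 15 held the element (39.5%), and of 17 promoters of those lower in the invasive line, 9 held it (52.9%). Among all genes counted the share was 2.98% of 11090 promoters, with 5.74% for all lower and 3.77% for all higher genes. The NF-kB site was found in 18 of 32 promoters of the target genes (56.2%), in 7 of 14 of the higher ones (50%) and in 10.6% of all, and it was also in the promoters of Nfkb2 and Nfkbie, which were not higher. Both lists were collected from what is known of these pathways, so that their promoters hold the letters is a description of the lists. Among the other motifs searched, the TEAD letters GGAATG were in 10 of 20 promoters of Yap and Taz target genes (50%) and 12.1% of all, yet in none of 4 promoters of the higher targets. The cAMP element TGACGTCA was rarer on both sides, in 0.714% of promoters of higher and 1.32% of lower genes against 3.01% of all.

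**Figure D4:**
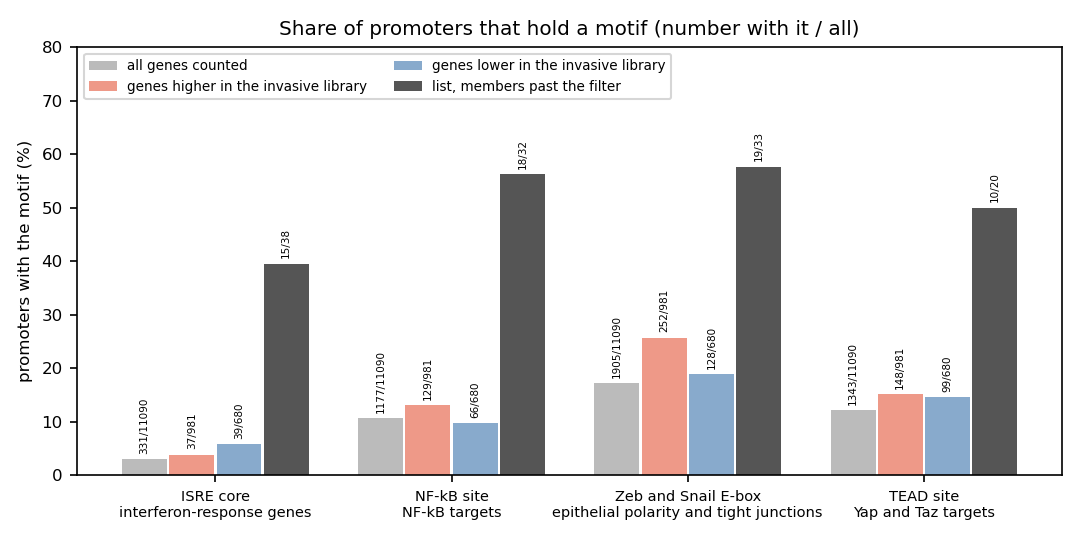
Percent of promoters (250 bases before to 50 after the start) that hold a motif, for all genes counted (light grey), genes higher (red) and lower (blue) in the invasive library, and the members past the filter of the list named below each motif (dark grey), with the number of promoters over each bar. The lists stand at 39.5% to 57.6%, and all genes counted at 2.98% to 17.2%.

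Genes of the Bcl2 family, which set the threshold for apoptosis, were higher where they differed. In this family 5 of 17 were higher and none lower: Pmaip1 (Noxa), a promoter of apoptosis, was at 10.2, 48.6 and 37.6 FPKM, and Bmf at 1.92, 7.998 and 3.92 FPKM. The inhibitors of apoptosis Mcl1 and Bcl2l1 were within 2-fold, with 43.8, 58.3 and 57.7 FPKM and with 51.8, 59.6 and 45.6 FPKM. Casp1, the protease of the inflammasome, was at 0.361, 12.1 and 15.5 FPKM, and Aim2, a DNA sensor that recruits it, at 0.76, 12.2 and 4.97 FPKM. Trp53 was level, with 123, 129 and 115 FPKM. Of 29 of its targets past the filter 3 were higher and 3 lower (10.3% each), near the 8.78% and 6.07% of all genes. Btg2 was higher, with 5.1, 35.4 and 23 FPKM, and Fas lower, with 17.2, 2.58 and 4.5 FPKM. Smad4, often lost in pancreatic tumours, was at 31.2, 38.7 and 36.4 FPKM. Among single secreted proteins, lactoferrin (Ltf) was at 0.324, 103 and 40.4 FPKM, lipocalin (Lcn2) at 114, 472 and 163 FPKM and clusterin (Clu) at 233, 2865 and 1421 FPKM. Complement and coagulation genes were split, 6 of 19 higher and 5 lower. Cfb, a factor of the alternative complement pathway, was at 12.8, 93.3 and 39.5 FPKM, and C2, its relative of the classical pathway, at 6.67, 0.285 and 0.112 FPKM.

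Among metabolic genes, those of lipid synthesis were higher as groups. All 24 genes of cholesterol synthesis and uptake past the filter were above 0, 12 of them were at least 2-fold higher (50%) and none lower, with a median of 0.99. With log2(FPKM + 5) in place of log2(FPKM + 1), 7 of them stayed past 2-fold. Stard4, a sterol carrier, was at 2.8, 11.2 and 10.8 FPKM. Of 15 fatty acid synthesis genes 7 were higher and none lower, a median of 0.72, and of 10 elongases and desaturases, most of them on the same list, 5 were higher and none lower. Elovl6, an elongase, was at 1.9996, 8.66 and 9.82 FPKM and Acss2, which makes acetyl-CoA from acetate, at 2.05, 8.54 and 7.67 FPKM, while Fasn, the fatty acid synthase, was within 2-fold, with 15.6, 24.9 and 23.6 FPKM. Other metabolic lists were split. In the retinoid pathway 5 of 17 were higher and 4 lower, with a median of 0.03. The receptor of retinol-binding protein, Stra6, was at 0.101, 34.8 and 12.6 FPKM, the retinol dehydrogenase Rdh10 at 66.9, 209 and 233 FPKM and the retinal dehydrogenase Aldh1a3 at 2.59, 74.4 and 84 FPKM. Dhrs3, which turns retinal back into retinol, was higher too, with 35.7, 174 and 179 FPKM, as was the carrier Rbp2, with 11.1, 26.7 and 28.1 FPKM. The cytosolic carriers of retinoic acid were lower, with Crabp1 at 134, 0.507 and 0.111 FPKM and Crabp2 at 17.8, 1.92 and 2.39 FPKM. Lower as well were the dehydrogenases Aldh1a1, at 2.64, 0.314 and 0.484 FPKM, and Dhrs9, at 2.51, 0.505 and 1.59 FPKM, so enzymes of this pathway stood on both sides. Glycolysis gave 7 of 33 higher and 4 lower. Hk2, an inducible hexokinase, was at 15.9, 63.2 and 74.2 FPKM, Ldha was level at 2375, 2722 and 2939 FPKM, and Ldhb and Eno2 were lower, with 12.6, 0.852 and 0.207 FPKM and 10.2, 0.692 and 0.272 FPKM. Hypoxia targets gave 10 of 38 higher and 4 lower with a median of 0.22, and single members stood far apart on both sides. The oxygen sensor Egln3 was at 24.2, 152 and 195 FPKM and Ddit4 at 39.2, 110.1 and 89.1 FPKM, but Car9, a widely used hypoxia marker, was at 48.1, 7.23 and 4.15 FPKM and Lox, which crosslinks collagen, at 74, 1.49 and 0.305 FPKM. The part of the cobalt chloride named in the labels was not tested. Sphingolipid genes gave 7 of 28 higher and 1 lower, such as the sphingomyelinase Smpd3 with 2.9, 40.2 and 26.4 FPKM, the glucosylceramide synthase Ugcg with 12.6, 27 and 37.3 FPKM and the ganglioside synthase St3gal5, lower, with 73.9, 20.4 and 11.9 FPKM. Membrane lipid remodelling had Lpcat4 at 10.7, 64.2 and 67.4 FPKM and Lpcat3 at 15.4, 53 and 47.1 FPKM on the higher side and Lpcat2 at 5.09, 0.139 and 0.114 FPKM on the lower. Enzymes of polyamine breakdown were higher, with Smox at 14.2, 98.6 and 60.5 FPKM and Paox at 17.3, 67.3 and 66.8 FPKM, whereas the synthetic enzyme Odc1 was at 71.7, 70.9 and 73.3 FPKM. Glul, glutamine synthetase, was at 14.4, 74.2 and 63.3 FPKM, and Asns, asparagine synthetase, at 26, 66.3 and 58.1 FPKM. Of 23 fatty acid oxidation genes none was higher and 2 were lower, below the share of all genes for the higher side.

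Enzymes that build surface sugars differed within each pathway. Of 21 enzymes of mucin-type glycans that passed, 6 were higher and 6 lower. Galnt3 and Galnt4, which start O-glycans, were at 4.32, 27.5 and 29.2 FPKM and at 6.45, 46.5 and 54.2 FPKM, and Gcnt3, a branching enzyme of mucin-secreting epithelium, at 0.0318, 10.02 and 25.3 FPKM. Galnt15 and the branching enzyme Gcnt1 were at 10.9, 0.123 and 0.0744 FPKM and at 29.4, 7.99 and 7.44 FPKM, both higher in the localized line. Muc1, a membrane mucin that carries such sugars, was at 0.297, 111 and 112 FPKM, while none of the gel-forming mucins Muc2, Muc5ac and Muc6 reached 0.3 FPKM in any library. Of 10 sialyltransferases 3 were higher and 1 lower, with St6gal1 at 17.3, 56.8 and 36.6 FPKM and St6galnac2 at 0.802, 22.9 and 9.08 FPKM. In sulphation of proteoglycans, Hs3st1 was at 14.4, 136 and 80.01 FPKM and Chst11 at 0.929, 23.3 and 24.1 FPKM, whereas Chst1 was at 51.7, 6.68 and 1.85 FPKM. Lgals4 and Lgals2, galectins of the gut that bind surface sugars, were at 2.36, 359 and 1239 FPKM and at 2.86, 50.6 and 146 FPKM. The near-identical copy Lgals6 was at 1.67 FPKM in the invasive line, and reads of Lgals4 and Lgals6 may have been split between them. Lgals1, the galectin of mesenchymal cells, was within 2-fold.

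Much of the extracellular matrix beyond fibrillar collagen was lower in the invasive line, but not all of it. Of 51 elastic fibre and matrix glycoprotein genes listed 46 were in the table and 30 passed, with 17 lower and 4 higher, a median of -1.28. Sparc, which binds collagen, was at 376, 75.3 and 32.4 FPKM and Fn1, fibronectin, at 928, 285 and 171 FPKM, both still well expressed in the invasive line. Among elastic fibre genes, Emilin1 was at 23.8, 0.583 and 0.14 FPKM and Fbln5 at 9.89, 1.18 and 0.503 FPKM, whereas Efemp2 (fibulin-4) was just within 2-fold and abundant, with 169, 83.9 and 43.2 FPKM. Bgn, biglycan, was at 535, 19.1 and 0.354 FPKM. Exceptions were Npnt, nephronectin of basement membrane, with 25.1, 141 and 153 FPKM, and Lama5, an epithelial laminin chain, with 34.6, 98.5 and 82.8 FPKM. These 2 were higher in the invasive line, as was Col18a1, a basement membrane collagen, with 33.5, 195 and 210.3 FPKM. Laminin chains as a family had 2 of 7 past the filter higher and 1 lower, with a median of 0.41. Enzymes that modify collagen gave 8 lower and 1 higher of 16: Fkbp10, a chaperone of procollagen, was at 59.3, 5.03 and 6.13 FPKM and Loxl1 at 38.4, 1.94 and 1.39 FPKM, against Loxl2 at 20.4, 47.3 and 33.8 FPKM. Matrix proteases were split, with Mmp15 and Mmp28 higher, at 1.14, 12.2 and 11.3 FPKM and at 2.56, 14.3 and 18.1 FPKM, and the stromal proteases Mmp2 and Mmp3 lower, at 17.9, 1.1 and 0.0803 FPKM and at 24.1, 0.733 and 0.213 FPKM. The inhibitor Timp3 was at 165, 5.07 and 8.15 FPKM. The lysosomal protease Ctsh was higher, with 15.5, 228 and 133 FPKM, and so was Ctse with 10.01, 35.7 and 8.01 FPKM. Fibroblast and pericyte markers, whose summed levels are given above, were lower along with these genes, and their part in the result was not tested.

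Families that serve every cell were level. None of 80 cytosolic ribosomal protein genes, 36 NADH dehydrogenase subunits, 20 cytosolic tRNA synthetases or 40 chromatin modifiers past the filter reached 2-fold in either direction. Their median differences were -0.14, -0.02, 0.25 and 0.02. Of 42 genes of the cell cycle and mitosis 1 was lower, Ccne2, with 7.4, 2.22 and 2.59 FPKM, and none higher. Cyclin Ccnd2, in contrast, was at 7.3, 47.5 and 60.5 FPKM, and the inhibitor Cdkn2c at 72.7, 17.8 and 18.7 FPKM. Mitochondrial ribosomal proteins had 1 lower member in 77, and cilium genes 1 in 32. Actin-based families were not level. Of 22 myosin genes 5 were higher (22.7%) and 1 lower, such as the class I myosin Myo1d with 11.2, 84.3 and 108 FPKM and Myo5b, a motor of apical recycling, with 0.0811, 4.88 and 3.61 FPKM. With a mean of at least 5 FPKM asked for, 2 were higher. The lower one was Myh10, a non-muscle myosin, with 28.2, 1.35 and 0.743 FPKM. Of 9 tropomyosin, calponin and transgelin genes 2 were lower (22.2%) and none higher, Tpm2 with 141, 23.2 and 6.29 FPKM and Cnn2 with 159, 57.1 and 28.9 FPKM.

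Differences were also laid out along the chromosomes. Positions on GRCm38.p6 were found for 11360 of the 11404 genes. The median over 25 consecutive genes stayed within 0.25 of 0 in 81.3% of 10880 windows. The highest window lay on chromosome 16 from 90826719 to 93876077, between Eva1c and Morc3, with a median of 1.01 (with 15 genes a window, the highest lay on chromosome 7, at 1.54), and 13 of its 25 genes were at least 2-fold higher and none lower. Windows with a median past 0.5 joined there into 1 block of 82 genes over 39.6 Mb, from 58469742 to 98082439. In this block 68 of 82 genes were above 0, 31 were at least 2-fold higher (37.8% against 8.78% of all genes) and 1 was lower, with a median of 0.79. Across the other 267 genes of chromosome 16, 14 were higher and 13 lower, and the median was -0.03. The block was drawn from these same differences, so its shares and its contrast with the rest of the chromosome describe it and are no support. Blocks of fewer genes were joined in the same way elsewhere, such as 57 genes on chromosome 14 and, in the lower direction, 64 on chromosome 19. Relative to the localized library, the metastatic library had a median of 0.97 in the block and 0.05 outside, though this comparison shares the localized library. The block holds genes of unlike function. Some are named above, such as Ifnar1, Ifnar2, Ifngr2 and Clic6. Sod1, the cytosolic superoxide dismutase, was just within 2-fold, at 212, 419 and 499 FPKM. App, the amyloid precursor, was at 76, 257 and 323 FPKM, Atp5o, a subunit of the ATP synthase, at 119, 268 and 285 FPKM, and Cxadr, a junction protein, at 7.7, 41.4 and 41.5 FPKM. Slc5a3 and Mrps6 lay in the block at about 0, with differences of -0.01 and -0.12. Thus 4 of the 7 higher genes of the interferon receptor list (Ifnar1, Ifnar2, Ifngr2 and Il10rb) lie in this block, while Ifngr1 lies elsewhere. DNA was not measured in the files used here.

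Chromosome 19 was shifted the other way over most of its length, with a median of -0.37 and 318 of 413 genes below 0. A window from 4962152 to 5510708, between Mrpl11 and Snx32, had a median of -0.58 with 5 genes lower and none higher. It includes Fosl1, an AP-1 factor, at 20.4, 7.55 and 9.44 FPKM and Drap1, a transcriptional repressor, at 187, 94.4 and 97.4 FPKM. A second window on this chromosome, from Ifit2 to Tbc1d12, had a median of -0.61 and holds Ifit1, Ifit2 and Ifit3 of the interferon-response list. Their differences of -3.20, -2.26 and -3.17 were well past that median, and so was that of Plce1, a phospholipase C in the same window, at -3.45. The rest of that list lies on many chromosomes, and Isg15 is on chromosome 4. Chromosome 14 had a median of 0.33, with 308 of 384 genes above 0, while chromosomes 4 and 5 had medians of -0.25 and -0.2. Metastatic minus localized, which shares the localized library, gave 0.06 for chromosome 14, -0.25 for chromosome 4, 0.09 for chromosome 5 and -0.32 for chromosome 19, so the metastatic library did not show the shifts of chromosomes 14 and 5. On chromosome 7 the window from Mob2 to Nadsyn1, at 142008517 to 143822862, had a median of 0.76 and holds an imprinted region. Its genes Igf2, the fetal growth factor, at 0.235, 101 and 50.2 FPKM, Phlda2 at 0.275, 3.92 and 4.62 FPKM, Slc22a18 at 3.71, 19.1 and 18.8 FPKM and Kcnq1 were all higher in the invasive line, and Cdkn1c was at 0.545, 3.44 and 2.88 FPKM. Of the 25 genes of this window 10 were at least 2-fold higher and 1 lower, and the others were within 2-fold. Imprinted genes as a list were split, with 5 of 18 past the filter higher and 3 lower, and a median of 0.03. Dlk1 and Sgce, imprinted genes elsewhere, were lower, with 15.2, 0.447 and 0.0303 FPKM for Sgce. On chromosome 10 the window from Ahi1 to Ptprk had a median of 0.88 with 12 higher and 2 lower genes, and holds the NKG2D ligands H60b and Raet1e and the surface enzymes Enpp3 and Vnn1. Vnn1, a pantetheinase, was at 123, 350.0 and 244 FPKM. The 2 lower genes of this window were Sgk1, a kinase that acts on ion channels, with 113, 4.8 and 1.62 FPKM, and Tmem200a, with 4.82, 1.24 and 0.812 FPKM.

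**Figure D5:**
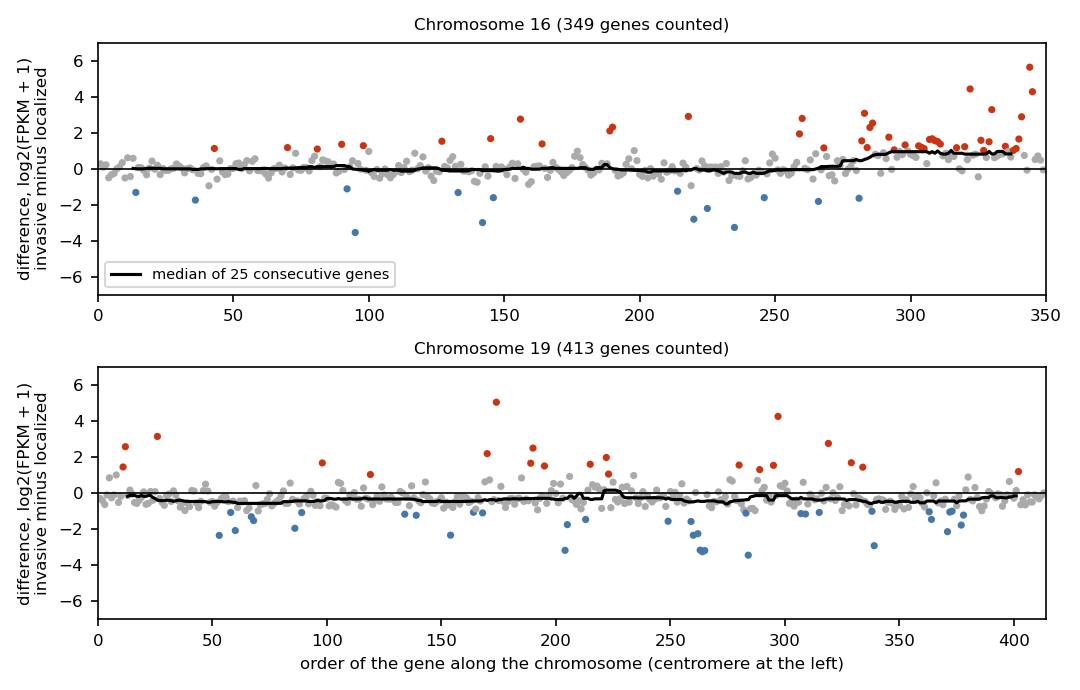
Difference in log2(FPKM + 1), invasive minus localized, of each gene counted in its order along chromosome 16 (349 genes, top) and chromosome 19 (413 genes, bottom); red points are at least 2-fold higher, blue at least 2-fold lower, and the line is the median of 25 consecutive genes. On chromosome 16 the line rises past 0.5 within the block of 82 genes, whose median over genes is 0.79. On chromosome 19 the line lies below 0 over most of the chromosome, where the median over genes is -0.37.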

How the data were processed

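One RNA-seq library for each of 3 mouse lines was read from 1 table of FPKM values, which the authors deposited with the unit in the name of the table. Per the labels' protocols, Trizol was used for extraction and TruSeq chemistry for the libraries, from 1 ug of total RNA. Cufflinks 2.2.1, STAR 2.5.2a, FastQC 0.11.2 and the build GRCm38 stand in the submitters' processing notes; their roles, the annotation, the read layout and the strand are not given in the sources used here. Without strand, a gene and an antisense or overlapping gene cannot be told apart, and near-identical copies may share reads.

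The smallest deposited value was 0.1, which was subtracted. Of 22784 entries, 27 with only a number as name were left out. Differences were taken in log2(FPKM + 1) for genes whose mean over the 3 libraries was 1 FPKM or more, and 2-fold on that scale was counted. Depth was estimated from steps between low values, of which 48.2% of ratios were whole within 0.02 log2, against 10.7% at other shifts. With 1 library a group no test was run. Depth limits low genes only, and intervals for counting error leave out culture and library.

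Families were taken by symbol and pathways by hand-written lists. The members, lists and comparison were chosen with earlier results of these data known. Genes were named by a rule (the largest differences, the 5 largest in each direction of a list, small families, markers, and within-2-fold members of metabolic lists). Named outside it, after their values were seen, were App, Bcl2l1, Bst2, Crb3, Cxadr, Ddit4, Drap1, Fbln5, Fn1, Jup, Mcl1, Met, Mrps6, Nfkb1, Nfkb2, Nfkbia, Pdx1, Raet1e, Rel, Rela, Relb, Slc5a3, Sparc, Spry4, Tjp1, Tmem200a, Tnfaip3, Vnn1 and Zeb1. Dlg1, Epcam, Pard3 and Pard6a were also named in this way. Promoter letters and positions came from RefSeq tables of GRCm38.p6, and 8675 of the 11404 genes had a promoter there. Of 12 motifs searched on both strands, overlaps kept, the report gives a part. Among the others, the sterol element was in 1 of 20 promoters of cholesterol synthesis genes and 0 of 16 of fatty acid synthesis genes, against 1.14% of all. The AP-1 site was in 8.66% of promoters of higher and 8.97% of lower genes, against 5.34% of all. Other pseudocounts, filters and scalings were tried. The calculations used Python 3.11.15, pandas 2.3.3 and numpy 2.4.6, and were tested on simulated data. A further allele of the genotype is not reported here.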

Additional observations from a re-analysis of the deposited data

How the results depend on the processing

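No paired analysis was possible because each group has 1 library. For the same reason no library could be left out. With log2(FPKM + 5), 575 genes were at least 2-fold higher and 359 lower, in place of 1001 and 692, and with a mean of at least 5 FPKM 376 were lower and 735 higher. The larger pseudocount draws low genes towards 0, and the stricter filter leaves fewer genes. The other 7 settings (log2(FPKM + 0.1), no filter, a filter on the pair of libraries compared, values as deposited, centring, upper quartile and trimmed mean scaling) gave 949 to 1199 higher and 692 to 839 lower genes. Upper quartile scaling shifted all genes by -0.045 on the log2 scale, and the other scalings by less. Settings were compared for 317 of the genes named. Of these, 265 kept their side of 2-fold under each setting that gave a value, and none changed sign while past 2-fold. With log2(FPKM + 5), 45 fell short of it, and with log2(FPKM + 0.1) 6 more passed, among them Cftr at 3.08. Upper quartile scaling took Axin2, Hbegf and Morc3 just below 2-fold, to 0.99, 0.96 and 0.97, and Efemp2 and Drap1 just past it, to -1.04 and -1.02. The median of the complement and coagulation genes, 0.11, was -0.14 with a filter on the pair of libraries compared. The share of promoters with the E-box was 10.8% of all promoters and 51.5% of those of the junction list in a window of 150 bases before to 50 after the start, with the interferon element 1.79% and 36.8%, and with the NF-kB site 7.7% and 50%. With windows of 51 genes the highest run had a median of 0.94 and the lowest -0.59, and with 15 genes 1.54 and -0.81.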
